A study of Homo sapiens with 6 samples.

Results

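The genes described here encode the protein machinery at human chromosome ends. They are the 6 subunits of shelterin (TERF1, TERF2, TERF2IP, TINF2, POT1 and ACD), the 3 subunits of the CST complex (CTC1, STN1 and TEN1) and TERT, the catalytic subunit of telomerase. All 10 were picked by gene symbol, with no threshold on their values, from a table of 27980 symbols. Earlier results of these data were known when the list was made. The RNA came from RKO, a human line derived from a poorly differentiated carcinoma of the colon. For 3 libraries (shTRIP6) a short hairpin RNA against TRIP6 had been brought in by lentivirus, and for 3 (shControl) a scrambled hairpin by the same route. Both groups went through puromycin at 5 µg/ml, begun 36 h after infection and kept up for 2 to 3 weeks, so selection is common to both. The labels give the control genotype as WT. No source used here gives the hairpin sequence, the number of hairpins or whether the lines are clonal.

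Telomeres end in tandem repeats with a single-stranded overhang. TRF1 and TRF2, the products of TERF1 and TERF2, bind the double-stranded repeats, and RAP1, the product of TERF2IP, rides on TRF2. TIN2, from TINF2, bridges TRF1 and TRF2 to TPP1, from ACD, and TPP1 in turn carries POT1, which holds the single strand and, with TPP1, brings in telomerase. CST also binds single-stranded DNA, limits extension by telomerase and calls in DNA polymerase alpha-primase to fill in the complementary strand. The LIM proteins TRIP6 and LPP have been reported to associate with shelterin at telomeres, which is the link between the targeted gene and the genes described here.

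Library totals ran from 29605764 to 32089298 counts. Levels are given as CPM, the usual depth-scaled count, in which a count of 1 equals 0.0314 to 0.0336. Replicates differed by more than sampling noise, the ratio of chi-square to its degrees of freedom being 3.05 to 4.59 for pairs within shTRIP6 and 4.81 to 11.7 within shControl. The labels call the replicates biological, but nothing says that each is a culture of its own, and a p-value then reflects only how these libraries spread, which may be technical. TRIP6 itself stood at 19.8, 19.4 and 19.5 CPM in the shTRIP6 libraries, 24.3% of its shControl mean. Of the epithelial markers, KRT8 stood at 1719 ± 72.9 CPM in shTRIP6 and 1804 ± 99.4 CPM in shControl (SD, n = 3 each), and KRT18 was not called either. KRT19 was called higher, at 50.6 ± 3.15 against 13.8 ± 2.27 CPM (log2 fold change 1.87, edgeR adjusted p = 7.84e-12). EPCAM was listed at 0 in every library, which gives no level for it, since the counting and its annotation are not known here. CDH1 averaged 0.0212 CPM in shTRIP6 and 0.272 CPM in shControl. The 6 colonic markers summed to 0.257 CPM or less in every library. Fibroblast markers summed to 3.83 to 4.38 CPM in shTRIP6 and 9.85 to 10.7 CPM in shControl, leukocyte markers to 1.63 to 2.76 and 0.370 to 1.04 CPM, and endothelial markers to 0.224 to 0.282 and 1.78 to 2.29 CPM. The part of these levels in the results was not tested. In bulk RNA, fewer cells that express a gene and less RNA per cell cannot be told apart.

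Most of the telomere-protein genes differed little between the groups, and STN1 was the exception in size. All 10 genes had enough counts to be tested. STN1, CTC1, ACD and TERF2IP were higher in shTRIP6 and none was lower (edgeR quasi-likelihood test, Benjamini-Hochberg adjusted p under 0.05 over all genes). Over all 15473 genes tested, 29.0% were called higher, 31.2% lower and 60.1% in either direction, so 4 calls among 10 genes is a smaller share than that of the table. None of the 10 was lower at an unadjusted p under 0.05 either, nor in DESeq2 or limma-voom. The median log2 fold change of the 10 genes was 0.14, against -0.004 over all tested genes, and the median size of change without regard to sign was 0.18 against 0.33. When the test asked instead for a change beyond 1.2-fold, STN1 alone of the 10 was called, where 36.7% of all genes were called in either direction and 16.1% as higher. In 5 of the 10 genes (TERF1, TERF2IP, ACD, CTC1 and STN1) the 3 values of the groups did not overlap, against 65.3% of all genes.

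**Figure D1:**
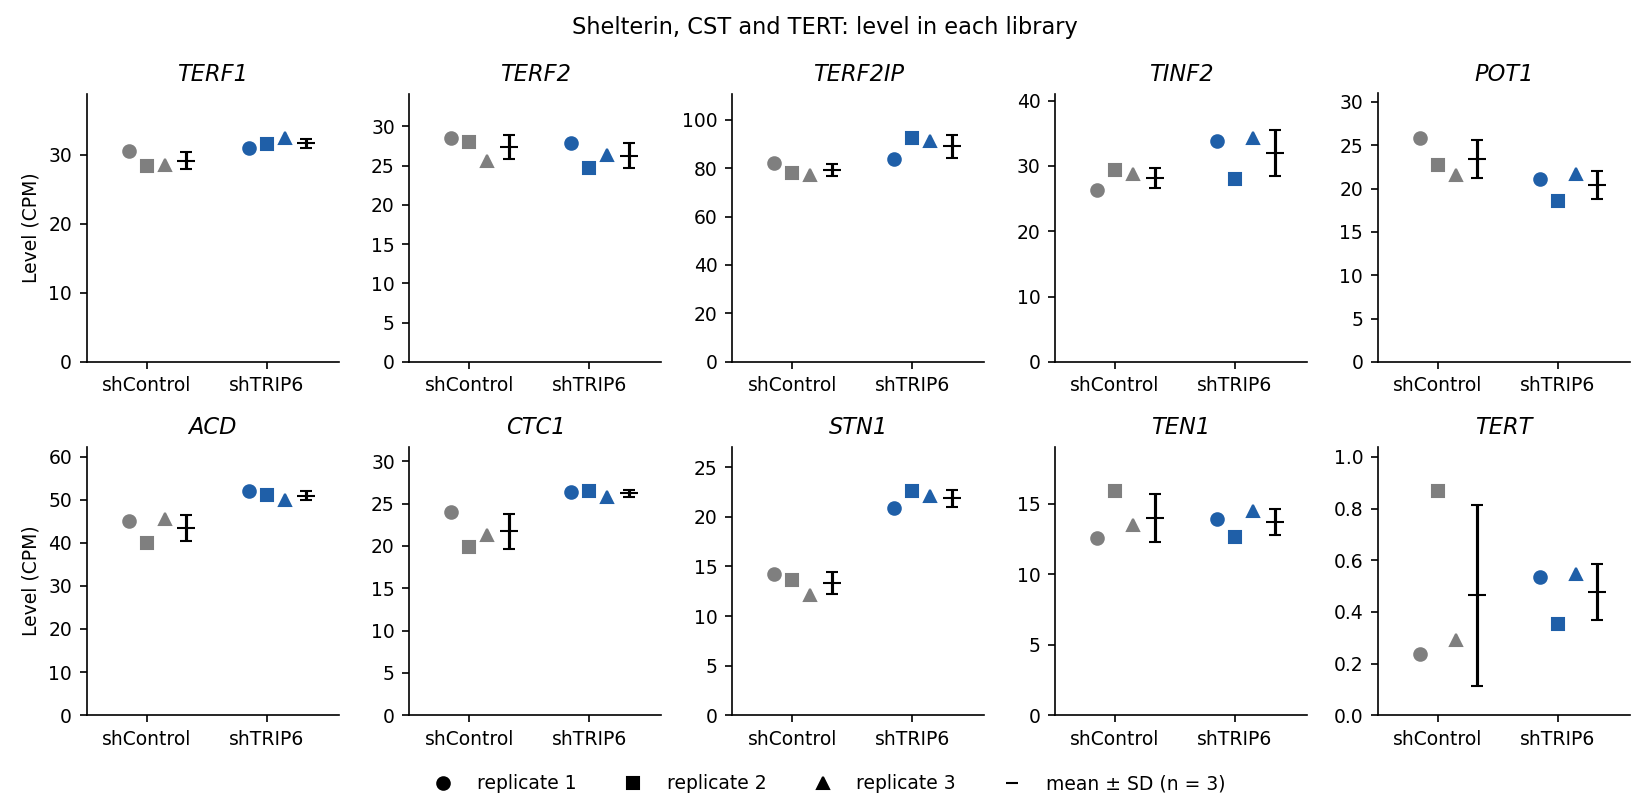
Level of each gene in each library in CPM, with every axis starting at 0. Grey symbols are shControl and blue symbols shTRIP6, symbol shape gives the replicate number, and the black bar is the mean ± SD (n = 3). STN1 runs from 12.1 to 14.2 CPM in shControl and from 20.9 to 22.6 CPM in shTRIP6, while TERF2, TINF2, POT1, TEN1 and TERT overlap between the groups.

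STN1 encodes the CST subunit that joins CTC1 to TEN1 and contacts polymerase alpha-primase. Its level was 14.2, 13.7 and 12.1 CPM in the shControl libraries and 20.9, 22.6 and 22.1 CPM in the shTRIP6 libraries. Every shTRIP6 library lay above every shControl library, and the gap of the means was several times the SD of either group. The means were 13.3 ± 1.10 and 21.9 ± 0.853 CPM (SD, n = 3 each), a 1.64-fold rise with a 95% interval of 1.43 to 1.89 (log2 fold change 0.72 ± 0.09 SE, edgeR adjusted p = 2.97e-06). The call held in all 15 alternative settings (adjusted p from 2.88e-10 to 7.81e-05), including the test against a 1.2-fold change. In the table as a whole, 1390 genes (8.98%) had a larger fitted rise than STN1, and 23.6% had a larger change in either direction.

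STN1 lies on the minus strand of chromosome 10 from 103882542 to 103918205 (GRCh38, protein-coding, ENSG00000107960.10), and its exons overlap those of no other gene of the table. The stretch just upstream of its annotated starts is shown because STN1 is the gene of the group that moved most. It is 229 bases, chr10:103918206-103918434, read 5′ to 3′ on the minus strand toward the gene, from the RefSeq promoter window (GRCh38.p14). Capitals mark each GGGCGG, the GC box, a motif that SP1-family factors bind.
STN1 upstream: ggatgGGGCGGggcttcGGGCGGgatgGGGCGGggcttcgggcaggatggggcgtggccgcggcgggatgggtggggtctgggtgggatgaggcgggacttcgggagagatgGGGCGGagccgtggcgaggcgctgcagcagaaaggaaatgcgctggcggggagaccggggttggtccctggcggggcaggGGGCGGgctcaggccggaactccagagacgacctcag
The shown stretch held 5 GC boxes, all in the orientation GGGCGG. The whole 300-base window (250 bases before the RefSeq start and 50 after) held 6 on both strands together, and 2.86% of 35116 windows of that length held as many or more. At least 1 GC box stood in 45% of the windows. The GC box consists of G and C only, and the STN1 window was 74.7% G and C, against a median of 58.7% over all windows. Windows were found for 6 of the 10 genes, and GC boxes numbered 3 for TERT, 2 each for POT1, ACD and TINF2, and 1 for TERF2IP. The ETS core CCGGAA, present on either strand in 17.2% of all windows, occurred in those of STN1, TINF2, POT1 and TERF2IP and in neither ACD nor TERT. The cyclic AMP response element TGACGTCA (1.85% of windows) occurred only in that of POT1 among the 6, and the E-box CACGTG (7.26%) only in that of TERT. These are matches of letters and show no binding. SP1 itself, named outside the rule, had 211 ± 7.22 CPM in shControl and 175 ± 2.85 CPM in shTRIP6 (log2 fold change -0.27, edgeR adjusted p = 5.48e-05). That call was lost in the edgeR test against a 1.2-fold change (adjusted p = 0.407).

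Genes beside STN1 on chromosome 10 were called in both directions. The 2 nearest tested genes on the side of lower coordinates were both lower in shTRIP6, SH3PXD2A at a log2 fold change of -0.41 ± 0.07 (edgeR adjusted p = 0.000104) and NEURL1 at -5.64 ± 0.58 (adjusted p = 1.21e-07), the latter from 3.38 to 0.0627 CPM. On the other side SLK was at -0.16 ± 0.06 (adjusted p = 0.0334) with overlapping groups, and COL17A1 at 1.58 ± 0.21 (adjusted p = 3.03e-06), from 2.00 to 5.99 CPM. These neighbours were chosen by position after the value of STN1 was known.

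CTC1, the large subunit that gives the CST complex its scaffold, rose slightly. It read 24.0, 19.9 and 21.3 CPM in shControl and 26.4, 26.4 and 25.8 CPM in shTRIP6, with no overlap. The rise was 1.21-fold (95% interval 1.07 to 1.37, log2 fold change 0.27 ± 0.09, edgeR adjusted p = 0.0106). Leaving out shControl replicate 2, the library with its lowest value, ended the call (adjusted p = 0.0596), and over all alternatives the adjusted p ran from 0.000716 to 0.420, the highest in the test against 1.2-fold. CTC1 lies on chromosome 17 from 8224821 to 8248095 on the minus strand.

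TEN1, the smallest CST subunit, was not called. Its levels were 12.6, 15.9 and 13.5 CPM in shControl and 14.0, 12.7 and 14.5 CPM in shTRIP6, and the groups overlapped (log2 fold change -0.03 ± 0.11, edgeR adjusted p = 0.833). The interval of the fold, 0.832 to 1.15, does not reach the 1.64-fold rise of STN1. This gene can be read only with a limit, since 75.4% of its exon length (983 bases on chromosome 17) is shared on the same strand with TEN1-CDK3, a read-through transcript of TEN1 and CDK3. TEN1-CDK3 itself had 17.8 ± 1.63 CPM in shTRIP6 and 18.0 ± 1.77 CPM in shControl, also not called (adjusted p = 0.912). No source used here says how reads in the shared exons were assigned.

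The ratio of STN1 to CTC1 within a library gives the shift inside CST without reference to other genes. STN1 had 0.592, 0.686 and 0.568 of the CPM of CTC1 in the shControl libraries and 0.792, 0.854 and 0.859 in the shTRIP6 libraries. The ratio was higher in all 3 shTRIP6 libraries than in any shControl library. It is a ratio of CPM, so its change between groups can be read but its size includes the lengths of the 2 genes. It restates the levels of STN1 and CTC1 given above and was not tested. Of the other ratios taken, STN1 to POT1 and POT1 to ACD did not overlap between the groups. TERF2IP to TERF2 (3.40 ± 0.373 in shTRIP6, 2.90 ± 0.117 in shControl) and TERF1 to TERF2 (1.21 ± 0.0851 and 1.07 ± 0.0510) did overlap.

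**Figure D2:**
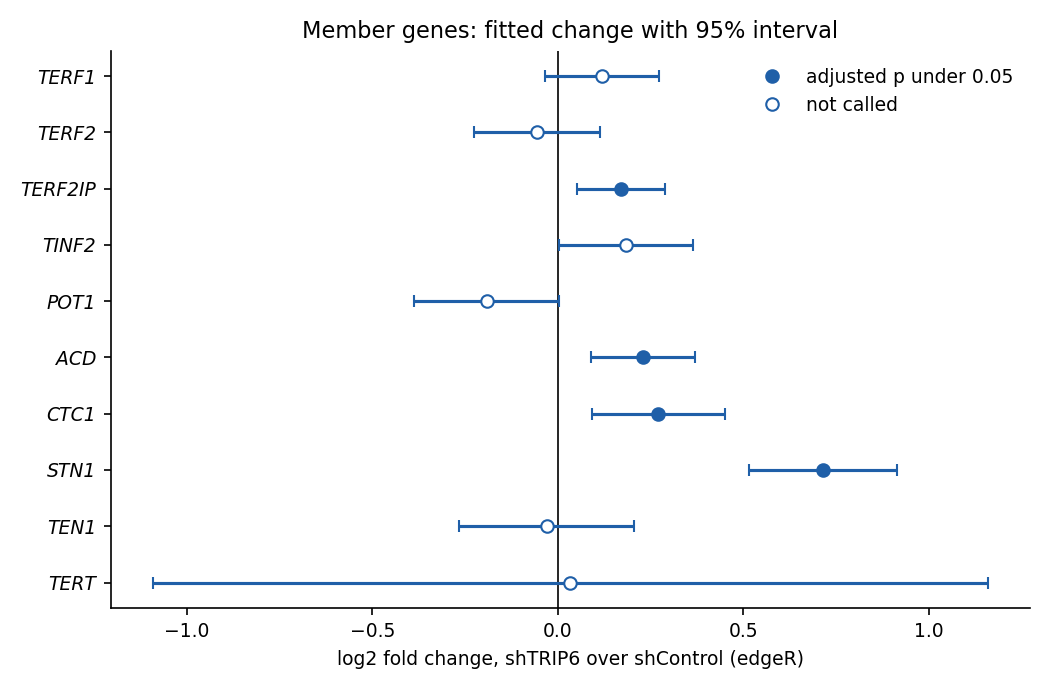
Fitted log2 fold change of shTRIP6 over shControl for each of the 10 genes from edgeR, with 95% intervals. Filled points passed an adjusted p of 0.05 and open points did not. STN1 at 0.72 stands apart from the other 9, whose values lie between -0.19 and 0.27, and the interval of TERT spans -1.09 to 1.16.

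Of the shelterin genes that bind double-stranded repeats or ride on them, only TERF2IP was called. TERF2IP, the RAP1 gene, read 82.0, 78.0 and 77.3 CPM in shControl and 83.6, 92.3 and 91.0 CPM in shTRIP6. The groups did not overlap, although shTRIP6 replicate 1 lay just above the highest control. The rise was 1.12-fold (95% interval 1.04 to 1.22, log2 fold change 0.17 ± 0.06, edgeR adjusted p = 0.0143). Without shTRIP6 replicate 2, its highest library, the call was lost (adjusted p = 0.0737), and the adjusted p ranged from 0.00204 to 1 over the alternatives, reaching 1 in the test against 1.2-fold. TERF2IP starts at position 75647786 of chromosome 16, and 176 bases of its exons (5.21%) overlap those of KARS on the opposite strand. KARS, the lysyl-tRNA synthetase gene, had 219 ± 0.733 CPM in shTRIP6 and 222 ± 13.1 CPM in shControl and was not called (adjusted p = 0.761).

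TERF1, whose product TRF1 restrains telomere lengthening, had 30.6, 28.4 and 28.5 CPM in shControl and 31.0, 31.6 and 32.4 CPM in shTRIP6. The groups did not overlap, but they were separated by less than 1 SD of shTRIP6 and the gene was not called (log2 fold change 0.12 ± 0.07, 1.09-fold with a 95% interval of 0.977 to 1.21, edgeR adjusted p = 0.167). The annotation names 5 pseudogenes after TERF1, none of them a row of the table, so reads shared with those copies could not be separated. TERF2, whose product TRF2 keeps chromosome ends from being joined, had 28.5, 28.0 and 25.6 CPM in shControl and 27.8, 24.6 and 26.4 CPM in shTRIP6. Its groups overlapped (log2 fold change -0.06 ± 0.08, 0.961-fold with an interval of 0.855 to 1.08, adjusted p = 0.565). TERF1 and TERF2 are on chromosomes 8 and 16.

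Of the bridging and single-strand arm of shelterin, ACD was called. ACD, the TPP1 gene, which carries the contact surface for telomerase, had 45.0, 39.9 and 45.4 CPM in shControl and 51.9, 51.0 and 49.8 CPM in shTRIP6. All shTRIP6 libraries lay above all controls, and the rise was 1.17-fold (95% interval 1.06 to 1.29, log2 fold change 0.23 ± 0.07, edgeR adjusted p = 0.00634). Its call was lost in the test against 1.2-fold (adjusted p = 0.675) and in none of the other 14 alternatives, with a range from 0.00119 to 0.675. ACD lies on chromosome 16 from 67657512 to 67660815, and 58 bases of its exons overlap CARMIL2 on the opposite strand, a gene at 0.191 ± 0.0616 CPM in shTRIP6 and 0.362 ± 0.184 CPM in shControl.

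TINF2, the TIN2 gene, had 26.3, 29.4 and 28.7 CPM in shControl and 33.8, 27.9 and 34.2 CPM in shTRIP6. Replicate 2 of shTRIP6 fell among the controls and the other 2 lay above them (log2 fold change 0.18 ± 0.09, 1.14-fold with an interval of 1.00 to 1.29, edgeR adjusted p = 0.0738). Without that library the gene passed (adjusted p = 0.0128), as it did under upper-quartile scaling (adjusted p = 0.0257), in a range of 0.0128 to 0.824. POT1, which caps the single-stranded overhang and is the shelterin subunit that TRIP6 and LPP were linked to, had 25.8, 22.8 and 21.5 CPM in shControl and 21.1, 18.6 and 21.7 CPM in shTRIP6. The ranges met between 21.5 and 21.7 CPM, and POT1 was not called (log2 fold change -0.19 ± 0.09, 0.876-fold with an interval of 0.765 to 1.00, adjusted p = 0.0848). Without shControl replicate 3 it passed as lower (adjusted p = 0.0438, in a range of 0.0438 to 0.772). Exons of POT1, on chromosome 7, share 111 bases with those of the antisense gene POT1-AS1, which averaged 0.360 and 0.715 CPM in shTRIP6 and shControl.

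POT1 and TPP1 act as a pair, and their genes had fitted changes of opposite sign. POT1 had 0.573, 0.570 and 0.474 of the CPM of ACD in the shControl libraries and 0.406, 0.365 and 0.435 in the shTRIP6 libraries. The ratio was lower in each shTRIP6 library than in any control, at 0.402 ± 0.0352 against 0.539 ± 0.0563 (SD, n = 3 each). This pair was looked at after its values were known, and its ratio was not tested.

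TERT was barely detected in RKO RNA of either group. It had 7, 27 and 9 counts in the shControl libraries and 17, 11 and 17 in the shTRIP6 libraries, or 0.235, 0.866 and 0.291 CPM and 0.533, 0.352 and 0.546 CPM. The shControl values enclosed all shTRIP6 values, with shControl replicate 2 the highest of the 6. The fitted log2 fold change was 0.03 ± 0.54 (edgeR adjusted p = 0.962), and the 95% interval of the fold, ran from 0.469 to 2.23. With counts this low and this spread between replicates, a change of TERT within that interval cannot be told from none. The sign of the fitted value turned when shControl replicate 1 (-0.28), shControl replicate 3 (-0.21), shTRIP6 replicate 1 (-0.05) or shTRIP6 replicate 3 (-0.06) was left out. Without shControl replicate 2 the value was 0.85, the largest move of the 6 leave-outs, and it was still not called (adjusted p = 0.251). TERT lies on chromosome 5 from 1253147 to 1295069 on the minus strand. TERC, the RNA template of telomerase, had 8 counts in shControl replicate 1, 2 in shTRIP6 replicate 2 and 0 in the other 4 libraries, too few to be tested, and 0 counts allow up to 0.0941 to 0.097 CPM in those 4 (3 counts, counting error only). Since the counting and its annotation are not known here, these values set no limit on the TERC level in the cells.

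**Figure D3:**
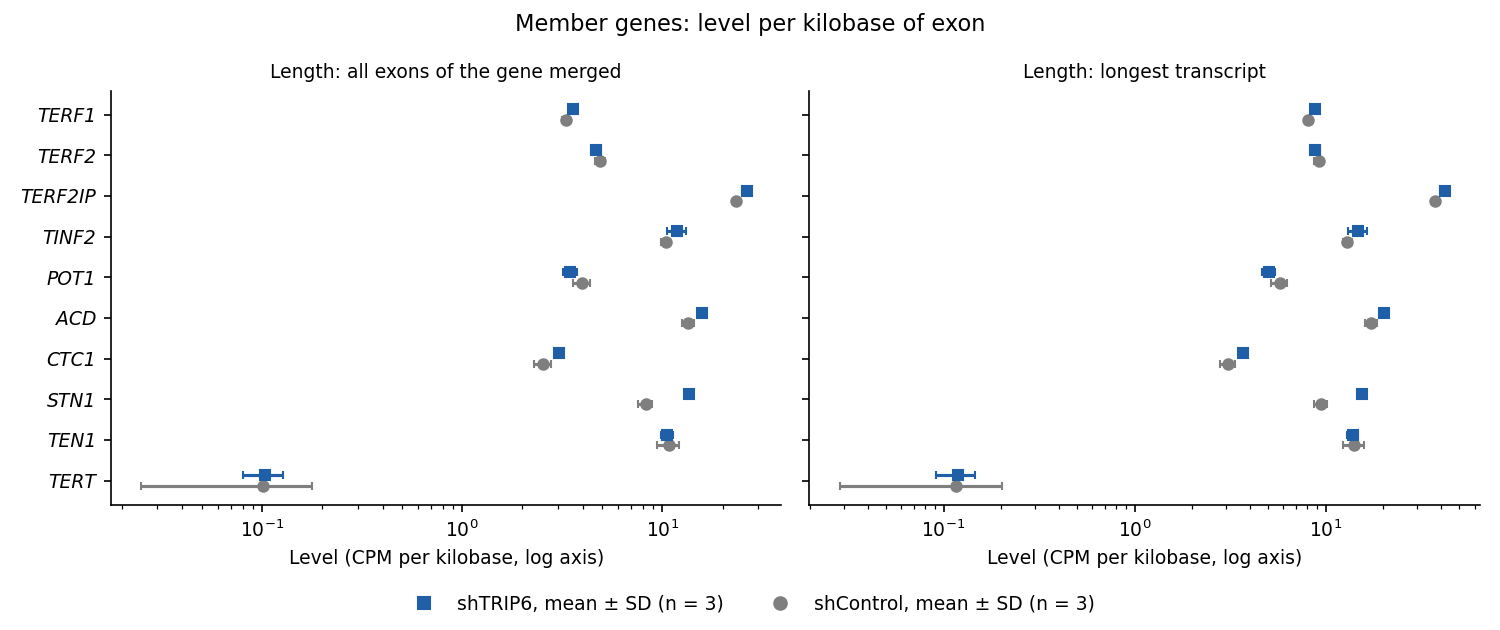
Level of each gene per kilobase of exon (log axis), with mean ± SD over 3 libraries, blue squares for shTRIP6 and grey circles for shControl. The left panel divides by the merged exons of the gene and the right panel by its longest annotated transcript. TERF2IP is highest and TERT lowest under both lengths, and STN1 ranks 5 of 10 in shControl and 3 of 10 in shTRIP6 by merged exons.

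Divided by exon length, the genes covered a wide range. With all exons of a gene merged (GENCODE 29), TERF2IP stood at 23.4 ± 0.747 CPM per kilobase in shControl and 26.3 ± 1.39 in shTRIP6 (SD, n = 3 each), the highest of the 10. ACD followed at 13.5 ± 0.952 and 15.8 ± 0.322 CPM per kilobase. TINF2 (10.4 ± 0.586 in shControl) and TEN1 (10.7 ± 1.31) did not differ beyond their spread. STN1 came next at 8.24 ± 0.681 CPM per kilobase in shControl, below TEN1 and TINF2, and reached 13.5 ± 0.528 in shTRIP6, above both. TERF2 (4.87 ± 0.277), POT1 (3.96 ± 0.373), TERF1 (3.30 ± 0.142) and CTC1 (2.54 ± 0.241) formed the lower end in shControl. TERT was at 0.101 ± 0.0759 CPM per kilobase. Dividing by the longest transcript raised every value and kept the order in shControl except that TERF1 (8.11) passed POT1 (5.73). Which annotation was counted against is not known here, so these lengths may not be those of the counted features.

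**Figure D4:**
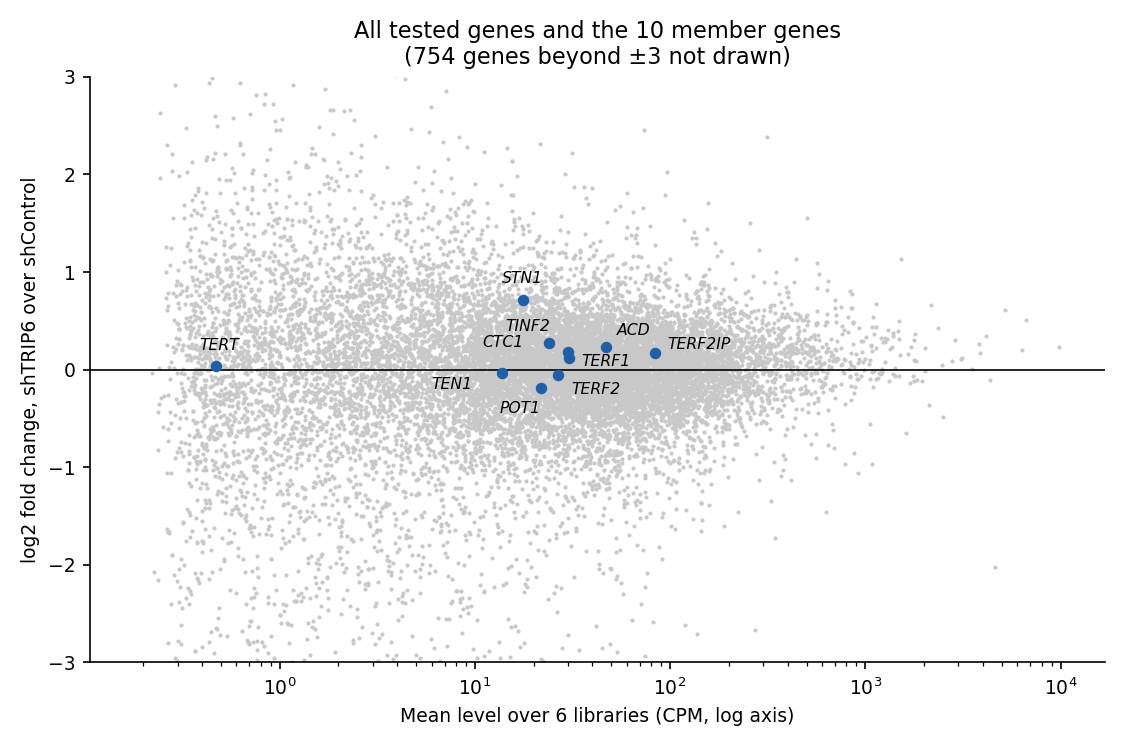
Fitted log2 fold change of shTRIP6 over shControl against mean level over the 6 libraries (log axis) for all tested genes in grey, with the 10 genes in blue. The vertical axis stops at 3 in both directions, which leaves out 754 genes. STN1 lies at 0.72, where 8.98% of tested genes lie higher, and the other 9 lie between -0.19 and 0.27.

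The genes that build telomerase around TERT and TERC went both ways. Of 13 genes for assembly and RNA maturation 12 were tested, 3 rose and 5 fell, which at 66.7% called compares with 60.1% for all genes. NAF1, an assembly factor of the box H/ACA particle, rose to 20.7 ± 0.774 CPM from 13.2 ± 1.39 CPM (log2 fold change 0.65 ± 0.10, edgeR adjusted p = 1.63e-05), and the assembly ATPase gene RUVBL2 rose by 0.35 ± 0.05. PARN, a deadenylase that trims the 3′ end of TERC, fell to 28.1 ± 1.02 CPM from 46.8 ± 3.80 CPM (log2 fold change -0.73 ± 0.07, adjusted p = 1.02e-07), and LARP7, an RNA-binding protein gene, was at -0.54 ± 0.08. Of the core particle genes, named here outside the rule, DKC1 at -0.12, NOP10 at -0.15 and NHP2 at -0.20 were lower by little. Their calls (edgeR adjusted p = 0.0339, 0.0324 and 0.00611) were lost in the test against 1.2-fold. GAR1 at 0.10 was not called (edgeR adjusted p = 0.266).

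The partner of CST, DNA polymerase alpha-primase, had 2 of its 4 genes higher and none lower, or 50% called against 60.1% of all genes. POLA2, the regulatory subunit gene, rose by 0.30 ± 0.06 on the log2 scale (edgeR adjusted p = 0.000162) and PRIM1, the catalytic primase gene, by 0.24 ± 0.08 (adjusted p = 0.0111). Both calls were lost in the test against 1.2-fold (adjusted p = 0.229 and 0.591, the highest over the alternatives, where the lowest were 8.56e-06 and 0.00315). POLA1 (-0.0035) and PRIM2 (-0.14) were not called, and none of the 4 was lower at an unadjusted p under 0.05 or in DESeq2 or limma-voom.

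Among 13 genes for telomere replication and end processing, 2 rose and 5 fell, or 53.8% called against 60.1% of all genes. The nuclease scaffold gene SLX4 fell to 20.4 ± 0.558 from 30.6 ± 3.27 CPM (log2 fold change -0.59 ± 0.09, edgeR adjusted p = 1.18e-05). MRE11, the nuclease of the MRN complex that resects ends, stood at 31.1 ± 2.33 against 45.8 ± 1.83 CPM (log2 fold change -0.56 ± 0.07, adjusted p = 2.35e-06). Its partner genes RAD50 (-0.10) and NBN (0.13), named outside the rule, were not called. The nuclease genes DNA2 and FEN1 rose by 0.24 ± 0.08 and 0.13 ± 0.04 (edgeR adjusted p = 0.0129 and 0.00964). The call of FEN1 was lost in the test against 1.2-fold (adjusted p = 1, in a range of 0.000961 to 1). The call of DNA2 was lost without shTRIP6 replicate 1 (adjusted p = 0.0589) and in the test against 1.2-fold (0.587), in a range of 0.00357 to 0.587.

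The largest change among the telomere-linked genes of these lists, leaving aside TRIP6 and WT1, was in ATRX. ATRX encodes a chromatin remodeller that deposits histone H3.3 at telomeres and whose loss is common in tumours that maintain telomeres by recombination (ALT). It had 128, 105 and 103 CPM in the shControl libraries and 56.1, 52.6 and 58.5 CPM in the shTRIP6 libraries. The groups were far apart, and 49.6% of the control level was left (log2 fold change -1.01 ± 0.07, edgeR adjusted p = 8.85e-10), with a call in all 15 alternatives (adjusted p up to 8.73e-08). A called change of 2-fold or more was found in 14.9% of tested genes. DAXX, the partner of ATRX, was listed at 0 in every library. The counting and its annotation are not known here, so this 0 gives no level for DAXX. Of the other genes of this list, SMARCAL1, an annealing helicase gene, rose by 0.46 ± 0.09 and the histone chaperone gene ASF1B by 0.31 ± 0.05, and FANCM was not called. The ASF1B call was lost in the test against 1.2-fold (adjusted p = 0.161, in a range of 6.11e-07 to 0.161). ASF1A stood at -0.23 ± 0.08 (adjusted p = 0.0258), a call lost in 6 of 15 alternatives. These were upper-quartile scaling (0.0712), the test against 1.2-fold (0.628) and leaving out shControl replicate 2 (0.1004) or 3 (0.0747) or shTRIP6 replicate 2 (0.110) or 3 (0.0943), in a range of 0.00318 to 0.628.

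**Figure D5:**
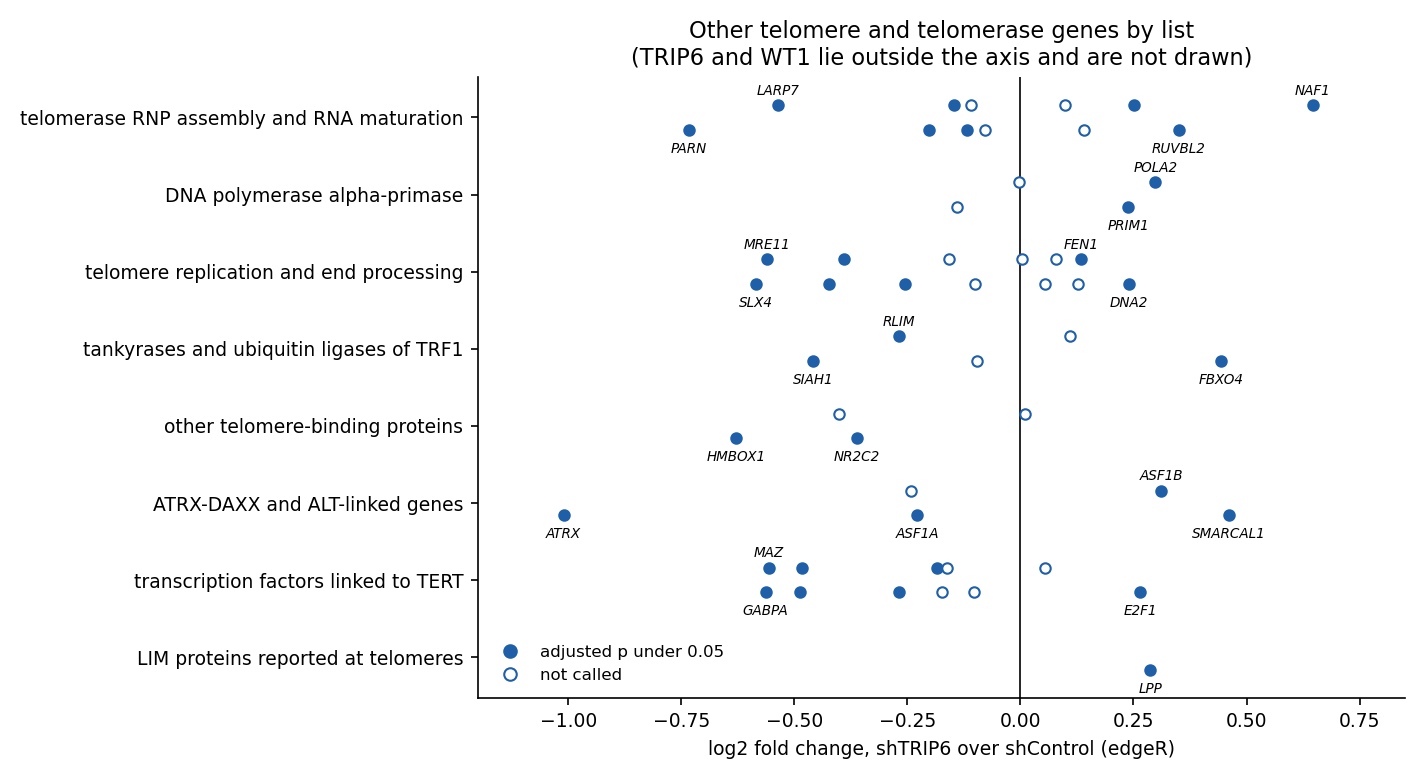
Fitted log2 fold change of shTRIP6 over shControl for the other telomere and telomerase genes, a row for each list, with filled points for genes called at an adjusted p of 0.05 and labels for genes chosen by rule. TRIP6 and WT1 lie outside the axis and are not drawn. The row of TRF1 ligases also holds SIAH1, a ligase reported for TRF2. ATRX at -1.01 is farthest to the left and NAF1 at 0.65 farthest to the right of the genes drawn.

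Genes for proteins that modify or turn over TRF1 or TRF2, and for other proteins that bind telomeric repeats, were also measured. The tankyrase genes TNKS (-0.10) and TNKS2 (0.11), whose products release TRF1 from telomeres, were not called. Of the ubiquitin ligase genes listed with them, FBXO4 rose by 0.44 ± 0.12 (edgeR adjusted p = 0.00364, lost against 1.2-fold at 0.0605, in a range of 0.000587 to 0.0605), SIAH1 was at -0.46 ± 0.12 (adjusted p = 0.00219) and RLIM at -0.27 ± 0.05 (adjusted p = 0.000222). The RLIM call was lost in the test against 1.2-fold (adjusted p = 0.408, in a range of 7.29e-06 to 0.408). Of 4 other telomere-binding protein genes, none rose and 2 fell (50% called against 60.1% of all genes), HMBOX1 to 9.49 ± 0.236 from 14.7 ± 1.77 CPM (log2 fold change -0.63 ± 0.12) and the orphan receptor gene NR2C2 by 0.36. None of these 4 was higher at an unadjusted p under 0.05 or in DESeq2 or limma-voom. Of the LIM proteins linked to shelterin, LPP rose by 0.29 ± 0.05 (adjusted p = 0.000123), to 166 ± 7.82 from 136 ± 7.11 CPM, and its call was lost against 1.2-fold (0.285, in a range of 6.00e-07 to 0.285).

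Transcription factors linked to the TERT promoter counted 6 lower and 2 higher of 12 tested (66.7% called against 60.1% of all genes), beside a TERT level too low to follow. MAZ fell to 124 ± 2.14 from 182 ± 3.64 CPM (log2 fold change -0.56 ± 0.05, edgeR adjusted p = 6.13e-09) and GABPA, which activates mutant TERT promoters, at 44.9 ± 1.07 against 66.4 ± 5.10 CPM (log2 fold change -0.56 ± 0.07, adjusted p = 5.56e-07). E2F1 rose by 0.26 ± 0.05 (adjusted p = 0.000360, lost against 1.2-fold at 0.442, in a range of 3.48e-05 to 0.442). WT1, a repressor of TERT and named outside the rule because its mean is below 1 CPM, stood at 1.69 ± 0.235 CPM in shTRIP6 and 0.0443 ± 0.0515 CPM in shControl (adjusted p = 7.37e-07). Over the 8 lists together, 57 of 59 genes were tested, 13 rose and 23 fell, or 63.2% against 60.1% of all genes.

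The genes most like STN1 over the 6 libraries were ACTA2, the smooth-muscle actin gene (Pearson r = 0.9988), CYP20A1, a cytochrome P450 gene (0.9984), and DLEU2, a long noncoding RNA gene (0.998), out of 10205 candidates with a mean of 10 CPM or more. ACTA2 ran from 12.2 to 14.0 CPM in shControl and from 18.4 to 19.3 CPM in shTRIP6. Points in 2 groups make such correlations high for any gene that differs between them, and 1093 candidates had an r above 0.95, so the order within these is a description only.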

How the data were processed

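RNA-seq of 3 shTRIP6 and 3 shControl libraries was used. The authors deposited whole-number read counts for each symbol, not normalized, per the values of the files. Per the submitters' processing notes, TopHat2, edgeR, limma and hg38 were involved, without role or version. No source used here names the counting tool, annotation or strand setting, so reads of genes overlapping on opposite strands may be mixed. Groups and replicate numbers came from the labels. The 10 genes, the other lists and the tests were chosen with earlier results of these data known.

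All genes went into a single edgeR 4.0.16 quasi-likelihood fit under R 4.3.3, with group as the only term, TMM scaling and the filterByExpr filter, and p-values were Benjamini-Hochberg adjusted over 15473 genes with a threshold of 0.05. CPM used TMM-scaled library sizes. The SE is the absolute log2 fold change divided by the square root of F, and 95% intervals use the moderated degrees of freedom. All 10 genes passed the filter, so the planned permutation test for unfitted members was not needed. Genes named from the other lists were up to 2 rises and 2 falls per list by size of change, if called and averaging at least 1 CPM, and any other gene given from these lists falls outside that rule. Alternatives were RLE, upper-quartile and no scaling, 2 other count filters, DESeq2 1.42.0, limma-voom (limma 3.58.1), edgeR's glmTreat against 1.2-fold, a replicate block and leaving out each library. The fit was tested on simulated data in which 200 genes were changed. In the real data 60.1% of tested genes were called, so that test does not check the fit under so many changes. Positions and lengths came from GENCODE 29 (GRCh38), in which 25772 of 27980 symbols were found, and promoter sequence from RefSeq (GRCh38.p14). Intervals and floors cover counting error only where they rest on counts of a single library. Of the genes covered by the naming rule for exon overlap, 1 is not reported here.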

Additional observations from a re-analysis of the deposited data

How the results depend on the processing

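Of the 10 genes, STN1, TERF1 and TERF2 kept direction and side of the threshold in all 15 alternatives, and the other 7 changed in at least 1. TERT has 14, since it did not pass the filter of 1 CPM in 3 libraries. In the test against a 1.2-fold change 1 of the 10 genes was called higher, and over all genes 2493 were called higher and 3191 lower. Leaving out each library in turn gave 3 to 4 of the 10 genes higher and 0 to 1 lower, the 1 being POT1. The log2 fold change of TEN1 turned to 0.018 under upper-quartile scaling and ran from -0.10 to 0.072 with libraries left out, and that of TERT ran from -0.28 to 0.85. The cause was not tested. With the replicate number as a replicate block, 4 genes of the 10 were called higher and 0 lower, and 4377 genes were higher and 4702 lower over the table. Same-numbered libraries did not deviate together (r of deviations -0.01, -0.01 and -0.05). This gives no sign that the numbers pair the samples, but 3 libraries a group cannot settle it. TERT, at 7 to 27 counts a library, and TERC, at 0 to 8, allow little precision.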
